A study of Mus musculus with 9 samples.

Results

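The G1 cell cycle machinery was followed through its 10 genes Ccnd1, Ccnd2, Ccnd3, Ccne1, Ccne2, Cdk4, Cdk6, Cdkn1a, Cdkn1b and Cdkn1c, taken by their Ensembl identifiers from the 48526 genes of the count table. All 10 had counts in all 9 libraries, and all 10 passed the expression filter that left 18858 genes for testing. The cells were neural stem cells (NSCs) from the subependymal zone (SEZ) of adult mice of the C57BL/6 strain in the labels (C57BL/6J in the study's methods), grown as neurospheres. Differentiation was induced by culture on an adhesive substrate without EGF while FGF was kept. RNA was taken after 0, 1 or 6 h of differentiation, and the study describes the 0 h samples as undifferentiated NSCs. No library came from cells kept in EGF for 1 or 6 h. The loss of EGF, the change of medium and the time in culture therefore cannot be told apart. Each time point had 3 replicates, numbered 1 to 3 in the labels. The labels do not say whether the replicates came from separate animals, so the p-values measure the spread between these libraries, which may be technical. Cultured NSCs are a model without the other cells of the niche.

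The D-type cyclins bind CDK4 and CDK6, and these kinases phosphorylate the retinoblastoma (RB) proteins that hold E2F transcription factors in check. Released E2F activates the E-type cyclins, which bind CDK2, and the genes of DNA replication. The Cip/Kip inhibitors p21 (Cdkn1a), p27 (Cdkn1b) and p57 (Cdkn1c) bind cyclin and CDK complexes and block CDK2, and growth factors such as EGF act on this circuit mainly through the D-type cyclins. In the adult SEZ these genes are known for their part in the choice between quiescence, proliferation and cell cycle exit of NSCs.

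The total count per library was between 65871454 and 105592597, and mitochondrial genes took between 2.86% and 3.58% of it. Expression is given as CPM, the count of a gene relative to the library size scaled with the TMM method, and per kb of merged exons where genes are compared with each other. Differences were tested over the 18858 genes with edgeR (quasi-likelihood) with the replicate number as a block, and adjusted p-values are Benjamini-Hochberg values. A gene is called higher or lower at an adjusted p under 0.05. The 9 libraries were also tested without the block, which treats the 3 libraries of a time point as unrelated. Of the 8 neural stem cell markers all were tested. Nes (1106 to 2318 CPM), Vim (1840 to 3209 CPM), Fabp7 (1484 to 2483 CPM), Sox2 (102.9 to 127.5 CPM) and Egfr (512.7 to 819.9 CPM) were high in every library, Pax6 was between 31.3 and 40.6 CPM, and Prom1 (2.78 to 12.8 CPM) and Hes5 (1.05 to 9.25 CPM) were low. Gfap, which marks NSCs in the tissue, was between 0.476 and 1.63 CPM.

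Promoter sequences of 6 of the 10 genes were found in the RefSeq table (8 windows of 250 bases before to 50 bases after a start site, build GRCm38.p6), and they were searched on both strands for the motifs of factors that act on this circuit. The 3 shown here belong to the CDK4 gene, to the E-type cyclin with a window and to the Cip/Kip gene that was called at 1 h. Each is the 250 bases before the start, 5′ to 3′ on the strand of the gene, and the capitals mark the E-box (CACGTG) and the GC box (GGGCGG or its complement). The Cdk4 sequence lies on the plus strand at chr10:127063285-127063534, the Ccne1 sequence on the minus strand at chr7:38107491-38107740, and the Cdkn1a sequence on the plus strand at chr17:29093519-29093768. This Cdkn1a sequence precedes a start site inside the annotated gene. The other Cdkn1a window, whose upstream part is chr17:29090729-29090978 at the annotated start of the gene, held none of the motifs searched.
Cdk4: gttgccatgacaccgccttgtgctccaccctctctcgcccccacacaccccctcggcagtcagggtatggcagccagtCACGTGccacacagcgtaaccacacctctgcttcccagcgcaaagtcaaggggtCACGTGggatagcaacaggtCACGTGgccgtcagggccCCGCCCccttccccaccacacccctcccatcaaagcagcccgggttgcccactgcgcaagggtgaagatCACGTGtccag
Ccne1: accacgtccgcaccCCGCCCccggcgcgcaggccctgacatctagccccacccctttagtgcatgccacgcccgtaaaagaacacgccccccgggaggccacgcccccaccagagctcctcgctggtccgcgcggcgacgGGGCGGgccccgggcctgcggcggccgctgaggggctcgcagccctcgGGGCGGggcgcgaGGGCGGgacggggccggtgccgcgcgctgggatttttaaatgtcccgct
Cdkn1a: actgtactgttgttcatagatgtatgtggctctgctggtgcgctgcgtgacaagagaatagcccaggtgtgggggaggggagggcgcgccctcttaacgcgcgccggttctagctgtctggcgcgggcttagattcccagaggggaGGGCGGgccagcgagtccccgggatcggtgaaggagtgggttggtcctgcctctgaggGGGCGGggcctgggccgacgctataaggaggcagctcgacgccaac

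The Cdk4 promoter held 4 copies of the E-box, the site of MYC and related proteins, whose first bases lay 172, 118, 98 and 11 bases before the start. The only other E-box was a single copy in the window of Cdk6, and 7.15% of the 32851 promoters of the table hold one. The GC box, the site of SP proteins, stood 4 times in the window of Ccne1, 2 times in the window of Cdkn1a shown, 3 times in that of Cdk4 (once before the start), and also in those of Ccnd3 and Cdkn1b, and 35.7% of all promoters hold it. The FOXO motif (GTAAACA) was found in 1 window of Ccnd3, against 3.65% of all promoters. The E2F motifs TTTCGCGC (0.32% of all promoters) and TTTGGCGC (0.51%), the AP-1 motif TGAGTCA (5.2%), the CRE motif TGACGTCA (1.79%) and the EGR motifs GCGGGGGCG (2.91%, which overlaps the GC box) and GCGTGGGCG (0.61%) were not found in these letters in any of the 8 windows. Ccnd1, Ccnd2, Ccne2 and Cdkn1c had no window in the table.

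The levels per length spanned a wide range, within the D-type cyclins as well. At 0 h Ccnd1 (378 ± 13.7 CPM per kb, SD, n = 3) was the most abundant, followed by Ccnd2 (194 ± 36.6), Cdk4 (166 ± 6.21) and Cdkn1a (141 ± 29.5). Then came Ccne1 (26.3 ± 2.41 CPM per kb), Cdkn1b (19.3 ± 1.60), Ccne2 (12.2 ± 1.88), Ccnd3 (6.74 ± 1.58), Cdk6 (1.08 ± 0.590) and Cdkn1c (0.269 ± 0.0652). At 0 h the ranges of neighbours in this order overlapped between Ccnd2 and Cdk4, and for the other 8 neighbouring pairs they did not. At 1 h the order below Ccnd1 was Cdk4 (181 ± 18.6 CPM per kb), Cdkn1a (174 ± 35.2) and Ccnd2 (173 ± 43.2), whose ranges overlapped one another. At 6 h these 3 genes again overlapped, at 160 ± 3.76 CPM per kb for Cdk4, 152 ± 31.7 for Cdkn1a and 141 ± 31.6 for Ccnd2. The ranges of Ccnd3 (7.68 ± 1.10 CPM per kb) and Ccne2 (7.57 ± 2.12) overlapped at 6 h, after Ccne2 had been above Ccnd3 in 3 of 3 libraries at 0 h and at 1 h. The order of this pair depends on the length used. Ccnd3 has 8775 bases of merged exons and a longest transcript of 3858, and Ccne2 has 3495 and 3006. Without division by length Ccnd3 was above Ccne2 at 0 h, at 59.1 ± 13.9 against 42.5 ± 6.57 CPM. The 0 h means of other neighbours also changed order without this division. Ccnd2 was at 1824.5 ± 345 against 1782 ± 64.3 CPM for Ccnd1, and Cdkn1b at 87.7 ± 7.30 against 70.1 ± 6.42 CPM for Ccne1.

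**Figure D1:**
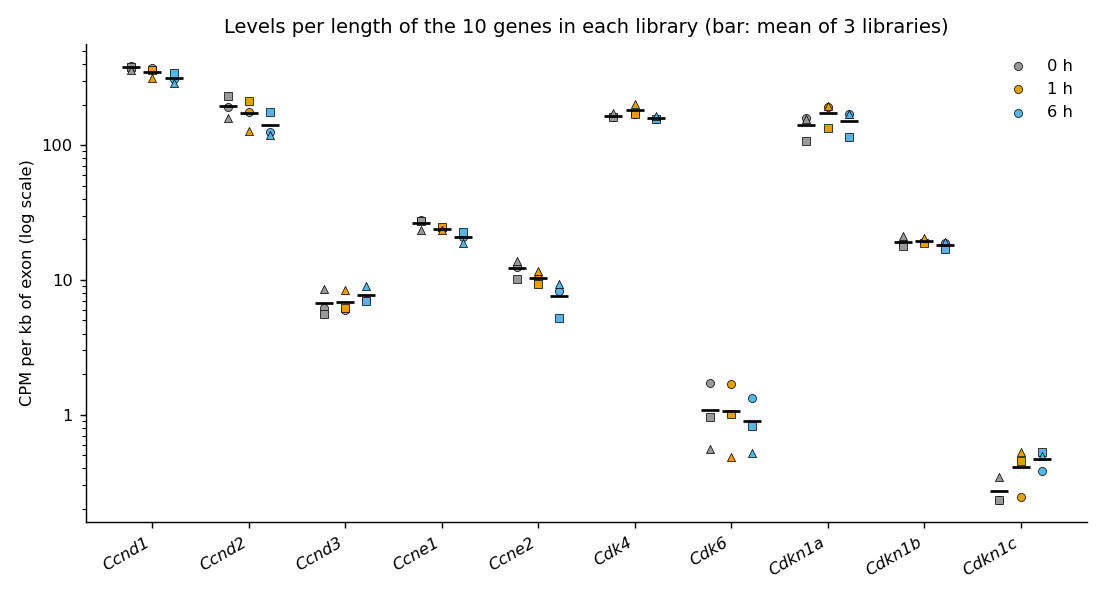
Levels per length of the 10 genes, as CPM per kb of merged exons on a log scale, with 1 point per library (circle, replicate 1; square, replicate 2; triangle, replicate 3) and a bar at the mean of the 3 libraries of a time point. Ccnd1 lies at the top of the scale at each time point, from 378 CPM per kb at 0 h to 315 at 6 h, and Cdkn1c at the bottom, from 0.269 to 0.466.

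At 1 h against 0 h, 1 of the 10 genes was called higher and 0 lower (edgeR with the block), where 1.36% of all tested genes were called higher and 2.14% lower. At an unadjusted p under 0.05 these counts were 3 higher and 3 lower, and DESeq2 with the block gave the same counts of 1 and 0. The counts were 2 higher and 5 lower at 6 h against 0 h, where 17.4% and 17.5% of all tested genes were called, and 1 higher and 6 lower at 6 h against 1 h, where 18.0% and 17.5% were. The comparisons share libraries, as the 0 h libraries enter the first and the second and the 6 h libraries the second and the third. The median log2 fold change of the 10 genes was -0.01 at 1 h and -0.15 at 6 h against 0 h, and that of all tested genes was 0.00066 and -7.8e-05.

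Without the block, edgeR called 0 of the 10 genes in each of the 3 comparisons, where it called 0.0424%, 2.42% and 2.14% of all tested genes in either direction. At an unadjusted p under 0.05 it then had 0, 4 and 0 of the 10 genes. DESeq2 without the block, the design nearest to the methods of the study, called 0, 2 and 0 of them, and the 2 were Ccne1 and Ccne2 at 6 h against 0 h. In bulk RNA a lower level in each cell and a smaller share of the cells that express a gene cannot be told apart.

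Ccnd1, the gene of cyclin D1 (ENSMUSG00000070348, chr7:144929931-144939925, minus strand), was at 1832, 1805 and 1710 CPM in replicates 1, 2 and 3 at 0 h. It was at 1764, 1705 and 1497 CPM at 1 h and at 1454, 1624 and 1370 CPM at 6 h. Every 6 h library was below every 0 h library, and in each replicate the order was 0 h, 1 h, 6 h. Ccnd1 fell by 17.0% at 6 h against 0 h (log2 fold change -0.27, SE 0.055, edgeR adjusted p = 0.0022 with the block and 0.19 without). Its difference at 1 h against 0 h was -0.11 (SE 0.055, adjusted p = 0.31). It was called lower at 6 h against 1 h (-0.16, adjusted p = 0.039), and 3 of the 9 fits that each omitted 1 library gave this call.

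Ccnd2, the gene of cyclin D2 (ENSMUSG00000000184, chr6:127125162-127152193, minus strand), had 1800, 2181 and 1493 CPM at 0 h. The values were 1665, 2019 and 1209 CPM at 1 h and 1188, 1670 and 1126 CPM at 6 h. The time points overlapped, because replicate 2 was the highest and replicate 3 the lowest at each of them, while all 3 replicates were lower at 6 h than at 0 h. Ccnd2 fell by 27.4% at 6 h against 0 h (log2 fold change -0.46, SE 0.065, edgeR adjusted p = 0.000153 with the block and 0.35 without). It was also called lower at 6 h against 1 h (-0.29, SE 0.065, adjusted p = 0.0043). The log2 ratios at 1 h against 0 h were -0.11, -0.11 and -0.30 in replicates 1 to 3 (adjusted p = 0.18).

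Ccnd3, the gene of cyclin D3 (ENSMUSG00000034165, chr17:47505051-47599691, plus strand), went the other way from the other D-type cyclins. Its values were 54.0, 48.6 and 74.8 CPM at 0 h, 52.3, 53.8 and 74.4 CPM at 1 h, and 62.7, 60.9 and 78.4 CPM at 6 h. Replicate 3 was above the other two at each time point, and the ranges of the time points overlapped. Ccnd3 rose 1.15-fold at 6 h against 0 h (log2 fold change 0.20, SE 0.058, edgeR adjusted p = 0.0155 with the block and 0.71 without) and 1.13-fold at 6 h against 1 h (adjusted p = 0.034). The call at 6 h against 0 h was lost in 3 of 9 fits, those without 0 h replicate 2 (adjusted p = 0.13), 6 h replicate 1 (0.087) or 6 h replicate 2 (0.069), and also after correction of every library for GC content and exon length (0.10 on the log2 scale, adjusted p = 0.11).

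As a share of the reads per length of the 3 D-type cyclins together, Ccnd1 took 65.5% ± 3.43 at 0 h, 66.4% ± 3.94 at 1 h and 68.1% ± 2.56 at 6 h (SD, n = 3). Ccnd2 took 33.3% ± 3.76, 32.3% ± 4.31 and 30.2% ± 2.87 at the same time points. Ccnd3 took 1.18% ± 0.376, 1.33% ± 0.463 and 1.69% ± 0.414. The ranges of each cyclin overlapped between the time points, but within replicates all 3 shares moved one way from 0 h to 6 h. Ccnd1 went from 66.3% to 69.8%, from 61.8% to 65.2% and from 68.5% to 69.3% in replicates 1 to 3. Ccnd2 went from 32.6% to 28.6%, from 37.4% to 33.5% and from 29.9% to 28.5%. Ccnd3 went from 1.05% to 1.62%, from 0.892% to 1.31% and from 1.61% to 2.13%. The shares themselves were not tested.

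Ccne1, the gene of cyclin E1 (ENSMUSG00000002068, chr7:38097984-38107534, minus strand), was at 74.6, 72.9 and 62.8 CPM at 0 h. It was at 63.2, 65.9 and 62.2 CPM at 1 h and at 55.7, 60.3 and 50.1 CPM at 6 h. All 6 h libraries lay below all libraries of the other time points. Ccne1 fell by 21.0% at 6 h against 0 h (log2 fold change -0.34, SE 0.055, edgeR adjusted p = 0.00042 with the block, 0.10 without it, and 0.022 with DESeq2 without it) and fell by 13.4% at 6 h against 1 h (adjusted p = 0.0104).

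Ccne2, the gene of cyclin E2 (ENSMUSG00000028212, chr4:11191351-11204779, plus strand), was at 43.5, 35.6 and 48.6 CPM at 0 h. It was at 36.4, 32.4 and 40.4 CPM at 1 h and at 28.9, 18.2 and 32.4 CPM at 6 h. The 6 h libraries lay below all libraries of 0 h, and replicate 2 was the lowest at each time point. Against 1 h the groups nearly touched: the highest library of 6 h (32.353 CPM) and the lowest of 1 h (32.356 CPM) differed only in the last digit given. Ccne2 fell by 38.7% at 6 h against 0 h (log2 fold change -0.71, SE 0.085, edgeR adjusted p = 4.3e-05 with the block, 0.14 without it, and 0.034 with DESeq2 without it), the largest fall among the 10 genes. It fell by 28.8% at 6 h against 1 h (adjusted p = 0.00074), and its difference at 1 h against 0 h was -0.22 (SE 0.084, adjusted p = 0.19). In the annotation, 17.4% of the exon bases of Ccne2 overlap Ints8 on the opposite strand, which had 48039 counts over the 9 libraries against 24601 for Ccne2. The strand setting of the counting is not stated.

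**Figure D2:**
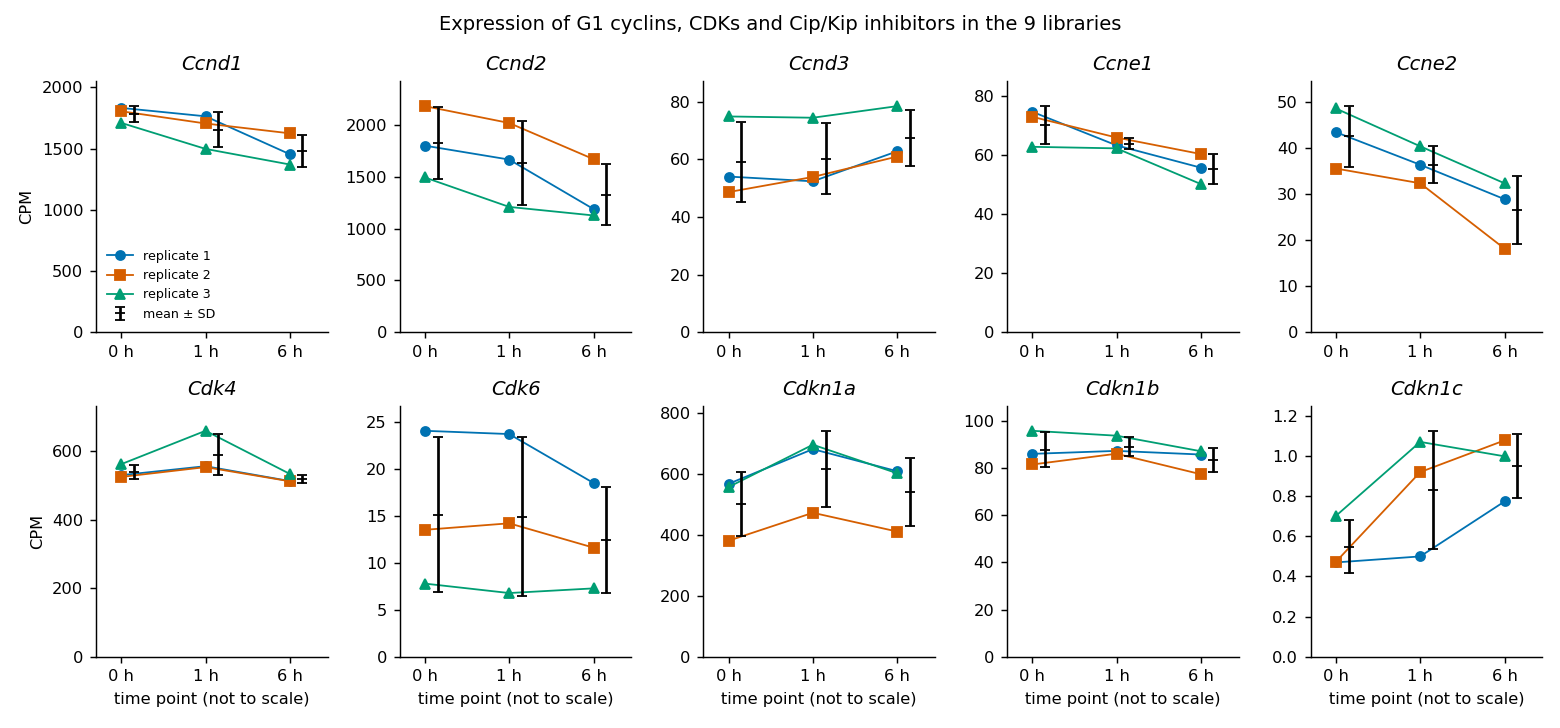
CPM of each of the 10 genes at the 3 time points, with 1 line per replicate number and the mean ± SD of the 3 libraries beside it; each vertical axis starts at 0, and the time axis is not to scale. The lines of Ccne2 all fall, to 28.9, 18.2 and 32.4 CPM at 6 h, those of Cdkn1a peak at 1 h at 682, 473 and 697 CPM, and those of Cdk6 keep replicates 1, 2 and 3 apart at every time point.

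Cdk4, the gene of the main kinase partner of the D-type cyclins (ENSMUSG00000006728, chr10:127063534-127067920, plus strand), was at 530, 525 and 562 CPM at 0 h. The values were 556, 554 and 660 CPM at 1 h and 513, 512 and 534 CPM at 6 h. Every 6 h library was below every 1 h library. Cdk4 was called lower at 6 h against 1 h (log2 fold change -0.18, SE 0.052, edgeR adjusted p = 0.017 with the block and 0.31 without), and this call was lost without 6 h replicate 3 (adjusted p = 0.10). Its differences against 0 h were 0.13 at 1 h (SE 0.052, adjusted p = 0.22) and -0.05 at 6 h (SE 0.052, adjusted p = 0.48). After correction for GC content and exon length, the value at 6 h against 0 h was -0.14 (adjusted p = 0.0149), which passed the threshold. Exons of Tspan31 on the opposite strand cover 19.7% of the exon bases of Cdk4, with 50896 counts against 391517.

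Cdk6, the gene of the other partner of the D-type cyclins (ENSMUSG00000040274, chr5:3341485-3531008, plus strand), had 24.1, 13.5 and 7.79 CPM at 0 h. It had 23.7, 14.2 and 6.79 CPM at 1 h and 18.5, 11.6 and 7.28 CPM at 6 h. The replicates differed more than the time points did, and their means over the time points were 22.1, 13.1 and 7.29 CPM, a 3.03-fold range. Cdk6 was called lower at 6 h against 0 h (log2 fold change -0.24, SE 0.085, edgeR adjusted p = 0.047 with the block and 0.87 without). Only 2 of the 9 fits that each omitted 1 library gave that call, and the adjusted p reached 0.27 without 6 h replicate 1. Its transcripts have 13989 bases of merged exons, the most of the 10 genes, so its level per length was 1.08 CPM per kb at 0 h against 166 for Cdk4.

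Cdkn1a, the gene of p21 (ENSMUSG00000023067, chr17:29090976-29100727, plus strand), was the gene called at 1 h. It was at 568, 381 and 558 CPM at 0 h, 682, 473 and 697 CPM at 1 h, and 610, 411 and 603 CPM at 6 h. Replicate 2 was below the other two at each time point by more than the time points differed, and the log2 ratios of 1 h to 0 h were close in the 3 replicates, at 0.26, 0.31 and 0.32. Cdkn1a rose by 23.0% at 1 h (log2 fold change 0.30, SE 0.045, edgeR adjusted p = 0.0025 with the block, 0.9998 without it, and 0.9999 with DESeq2 without it). With the block, 9 of the 9 fits that each omitted 1 library gave this call. Between 1 h and 6 h Cdkn1a fell by 12.4% (-0.19, SE 0.045, adjusted p = 0.0054 with the block and 0.74 without), and its value at 6 h against 0 h was 0.11 (SE 0.045, adjusted p = 0.082). The value at 6 h against 0 h passed the threshold in 3 alternative settings (lowest edgeR adjusted p = 0.035, with only the 6 libraries compared). It also did so in 1 of the 9 fits that each omitted 1 library. After correction for GC content and exon length it was 0.013 (edgeR adjusted p = 0.82).

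Cdkn1b, the gene of p27 (ENSMUSG00000003031, chr6:134920401-134925513, plus strand), was called in no comparison by edgeR with or without the block or by DESeq2. It was at 85.9, 81.4 and 95.7 CPM at 0 h, 87.2, 86.0 and 93.6 CPM at 1 h, and 85.6, 77.3 and 87.0 CPM at 6 h. The difference at 6 h against 0 h was -0.07 on the log2 scale (SE 0.049, adjusted p = 0.28) and that at 6 h against 1 h was -0.10 (SE 0.049, adjusted p = 0.15). The replicate means of Cdkn1b differed by 1.13-fold, among the smaller spreads of the group.

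Cdkn1c, the imprinted gene of p57 (ENSMUSG00000037664, chr7:143458339-143461050, minus strand), was close to the lower end of what these libraries can measure, with 32 to 107 counts per library. It was at 0.470, 0.473 and 0.702 CPM at 0 h, 0.50, 0.920 and 1.07 CPM at 1 h, and 0.774, 1.08 and 0.999 CPM at 6 h. All 3 libraries of 6 h were above all 3 of 0 h, and the 1 h libraries spanned both ranges. Cdkn1c rose by 73.3% at 6 h against 0 h (log2 fold change 0.79, SE 0.22, edgeR adjusted p = 0.0126 with the block and 0.24 without), the largest rise of the group in relative terms and a small one in CPM. The call was lost without 0 h replicate 2 (adjusted p = 0.094), 6 h replicate 1 (0.051) or 6 h replicate 2 (0.063).

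Among the Cip/Kip reads per length, Cdkn1a held 87.6% ± 1.92 at 0 h, 89.5% ± 1.89 at 1 h and 88.8% ± 1.69 at 6 h (SD, n = 3). Cdkn1b held 12.2% ± 1.89, 10.3% ± 1.81 and 10.9% ± 1.60, and Cdkn1c held 0.169% ± 0.0350, 0.218% ± 0.0923 and 0.285% ± 0.101. The ranges of Cdkn1a and Cdkn1b overlapped between the time points. For Cdkn1c the lowest share at 6 h (0.199%) was above the highest at 0 h (0.193%).

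Groups did not overlap in CPM for 4 of the 10 genes at 6 h against 0 h (Ccnd1, Ccne1, Ccne2 and Cdkn1c), for 3 at 6 h against 1 h (Ccne1, Cdk4 and, by the narrow margin given above, Ccne2) and for 0 at 1 h against 0 h. Of all tested genes, 25.0%, 22.2% and 8.24% did not overlap in these comparisons, in the same order. Among the genes called while their groups overlapped, the highest of the 3 replicate means was 1.53-fold the lowest for Ccnd2, 1.47-fold for Cdkn1a, 1.39-fold for Ccnd3, 3.03-fold for Cdk6 and 1.12-fold for Ccnd1. For Cdkn1c and Ccne2, which were separated at 6 h against 0 h, it was 1.59-fold and 1.41-fold.

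**Figure D3:**
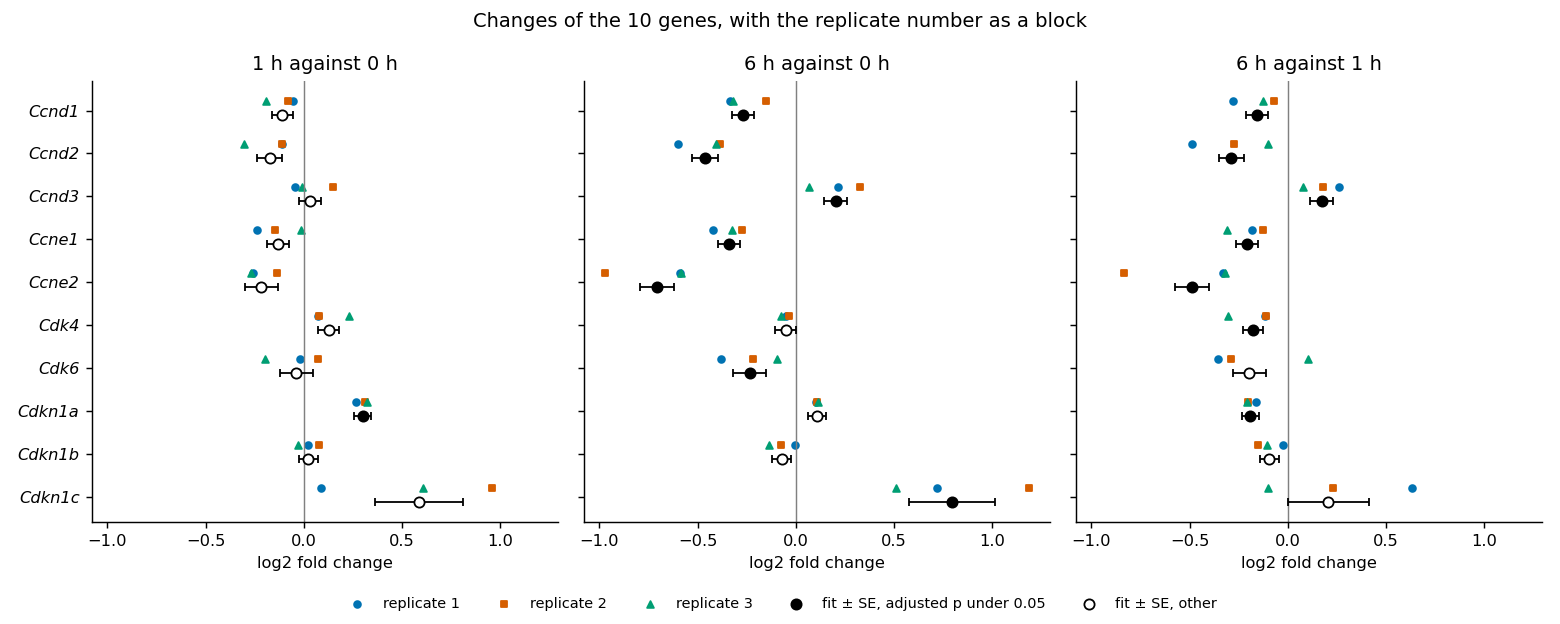
Log2 fold changes of the 10 genes in the 3 comparisons, with the fitted value ± SE of edgeR with the replicate block (black circles, filled where the adjusted p was under 0.05) and the log2 ratio of CPM in each replicate (coloured points). In the second panel (6 h against 0 h) the ratios of Ccnd1, Ccnd2, Ccne1, Ccne2 and Cdk6 are below 0 and those of Ccnd3 and Cdkn1c above 0 in all 3 replicates, and at 1 h the 3 ratios of Cdkn1a lie between 0.26 and 0.32.

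The partners of this machinery were taken from 8 lists with 79 genes, of which 76 were tested. At 1 h against 0 h, 6 of them were called (1 higher, 5 lower), at 6 h against 0 h 51 were called (9 higher, 42 lower), and at 6 h against 1 h 46 were called (9 higher, 37 lower). Of all tested genes, 3.51%, 34.9% and 35.6% were called in these comparisons, in the same order. The counts of each list below are to be read beside these shares. Without the block edgeR called 0, 0 and 1 of the 76 genes, with 2, 16 and 14 at an unadjusted p under 0.05, and DESeq2 without the block called 0, 10 and 7. The gene called by edgeR without the block was Mdm2, described below with the p53 targets. The calls given for the lists are those of edgeR with the block, and the genes named by rule were changed in the same direction in 3 of 3 replicates. Some values are given outside this rule. They are those of Rbl2, Ambra1, Nap1l4, Bbc3 and Gins2 at 6 h against 0 h, Cdc6 at 6 h against 1 h and E2f1 at 1 h.

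The 18 E2F target genes of S phase, which encode proteins of DNA replication and nucleotide synthesis, were mostly lower at 6 h than at 1 h. At 1 h against 0 h 0 of 18 were called (1 at an unadjusted p under 0.05, and 0 with DESeq2), and the median log2 fold change was 0.03. By 6 h, 17 of 18 were called lower than at 0 h and 0 higher, with a median of -0.43, and at 6 h against 1 h 17 were called lower, with a median of -0.43. Among them were Mcm6 of the replicative helicase (363 ± 120 CPM at 0 h and 260 ± 113 at 6 h, -0.53, adjusted p = 0.000116), the thymidylate synthase gene Tyms (-0.53, adjusted p = 8.3e-06) and the origin licensing gene Cdt1 (-0.51, adjusted p = 0.000221). The largest falls of the list from 1 h to 6 h included Orc1 of the origin recognition complex (-0.55, adjusted p = 0.00015) and Mcm5 of the helicase (-0.54, adjusted p = 2.3e-05). The gene not called at 6 h against 0 h was Gins2 (-0.15, adjusted p = 0.063), and the one not called at 6 h against 1 h was Cdc6 (-0.12, adjusted p = 0.25); both were chosen here after their values had been seen.

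Of the 13 genes of RB and E2F proteins, 3 were lower at 1 h, the E2F genes E2f2 (-0.33, adjusted p = 0.024), E2f8 (-0.33, adjusted p = 0.018) and E2f3 (-0.23, adjusted p = 0.040). After 6 h, 7 were lower than at 0 h and 1 higher. The falls were led by Rbl1, the gene of the pocket protein p107 (83.2 ± 11.4 CPM at 0 h and 55.4 ± 10.3 at 6 h, -0.59, adjusted p = 1.3e-05), followed by E2f8 (-0.48), E2f1 (-0.40) and E2f7 (-0.37). The gene that rose was Rbl2, which encodes the pocket protein p130 (0.28, adjusted p = 0.0032), and it also rose at 6 h against 1 h (0.31, adjusted p = 0.0017). E2f1, whose product activates transcription, was not called at 1 h (0.16, adjusted p = 0.24) and fell between 1 h and 6 h (-0.56, adjusted p = 4.9e-05), as did the gene of its dimer partner Tfdp1 (-0.37, adjusted p = 5.4e-05).

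The INK4 inhibitors are proteins that bind CDK4 and CDK6 and not the other CDKs. Of the 4 genes of this list, 0 were called at 1 h (2 at an unadjusted p under 0.05, and 1 with DESeq2 and the block). Cdkn2d was the 1 called at 6 h against 0 h, where it rose from 25.8 ± 4.52 to 32.8 ± 4.87 CPM (0.35, adjusted p = 0.0014). Between 1 h and 6 h Cdkn2d rose (0.20, adjusted p = 0.033), while Cdkn2c (-0.19, adjusted p = 0.021) and Cdkn2a (-0.19, adjusted p = 0.0495) fell. The counts are per gene, so transcripts of Cdkn2a cannot be told apart by the product they encode.

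Of the 6 genes of CDK2 and its activators, Cdc25a, which encodes a phosphatase that activates CDK2, was lower at 1 h (-0.22, adjusted p = 0.039). The 3 called at 6 h against 0 h were all lower, namely Cdk2 (94.9 ± 12.6 and 79.2 ± 12.9 CPM, -0.26, adjusted p = 0.0014), the cyclin H gene Ccnh (-0.24, adjusted p = 0.0045) and Cdc25a (-0.23, adjusted p = 0.0051). Of the 8 genes for the turnover of cyclins and Cip/Kip inhibitors, 1 was lower at 1 h, and 3 were lower and 2 higher at 6 h against 0 h. Skp2, which encodes the F-box protein that targets p27, was lower at 1 h (-0.21, adjusted p = 0.04997) and at 6 h (-0.23, adjusted p = 0.0045). Its cofactor gene Cks1b was lower at 6 h (-0.24, adjusted p = 0.027), and so was Dtl, which encodes a receptor of the ligase that degrades p21 and CDT1 (119 ± 49.3 and 78.2 ± 36.9 CPM, -0.64, adjusted p = 2.6e-05). Fbxw7, whose product targets cyclin E, rose (0.22, adjusted p = 0.0033), and Ambra1, whose product targets the D-type cyclins, rose at 6 h against 0 h (0.18, adjusted p = 0.011) and against 1 h (0.32, adjusted p = 0.00023).

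**Figure D4:**
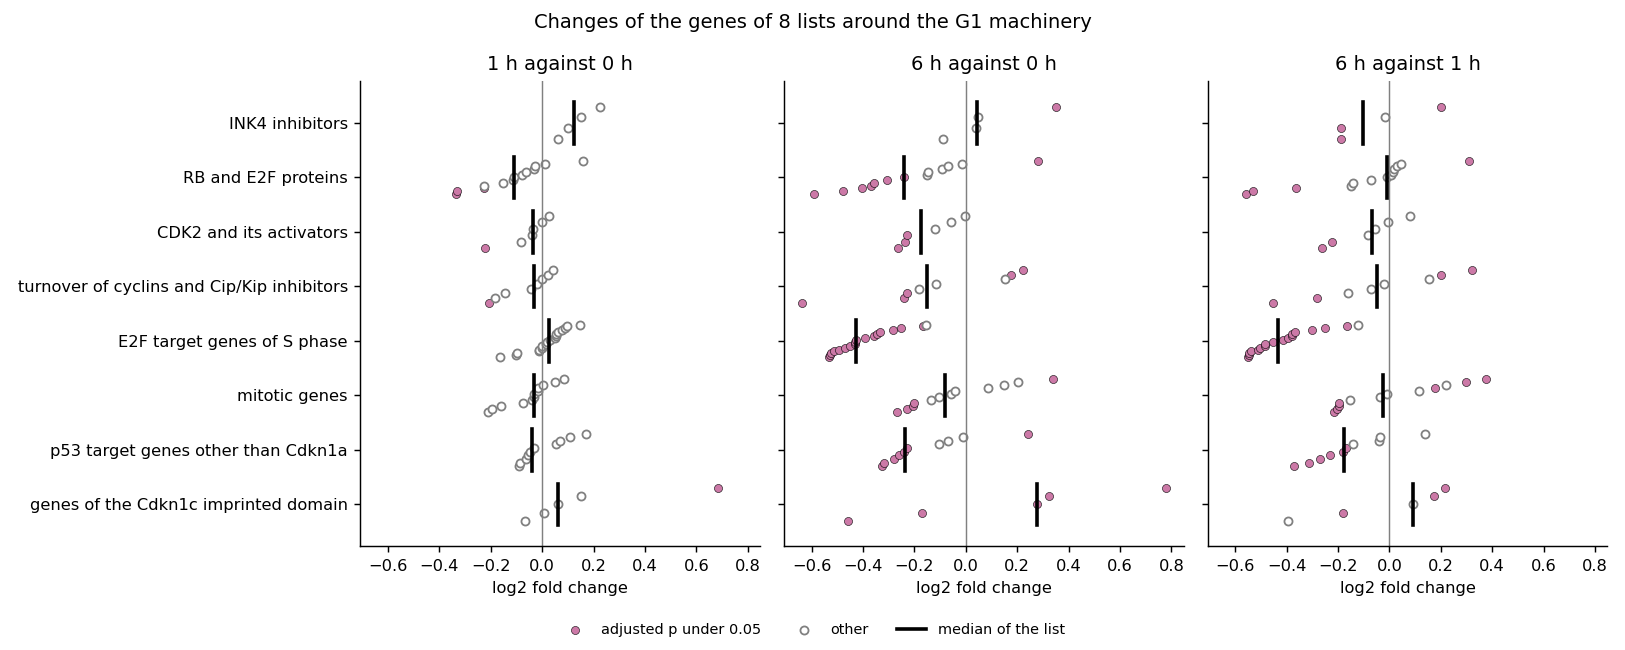
Log2 fold changes (edgeR with the replicate block) of the 76 tested genes of 8 lists in the 3 comparisons, with 1 point per gene, filled where the adjusted p was under 0.05, and a bar at the median of each list. The E2F target genes of S phase lie around 0 at 1 h, with a median of 0.03, and all 18 lie below 0 at 6 h, with a median of -0.43.

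The 12 mitotic genes did not follow the S phase list as a whole. Relative to 0 h, 4 were lower and 1 higher at 6 h, with a median of -0.08, where 17.5% of all tested genes were called lower and 17.4% higher. Bub1 of the spindle checkpoint (-0.27, adjusted p = 0.0069), Top2a (-0.23, adjusted p = 0.0031) and Mki67 (-0.21, adjusted p = 0.0080), both genes of proliferating cells, were lower. Ccnb2, the gene of cyclin B2, was higher (31.0 ± 15.7 and 37.2 ± 10.9 CPM, 0.34, adjusted p = 0.028). From 1 h to 6 h 3 rose, among them the Aurora A kinase gene Aurka (0.30, adjusted p = 0.0022), and 4 fell, among them Cdk1 (-0.22, adjusted p = 0.031).

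Cdkn1a is a p53 target, and the 10 other p53 target genes of the list were examined beside it. At 1 h, where Cdkn1a rose, 0 of the 10 were called (1 at an unadjusted p under 0.05, and 0 with DESeq2), and their median log2 fold change was -0.04. By 6 h, 6 were lower than at 0 h and 1 higher, with a median of -0.24. Mdm2, which encodes the ligase of p53, was at 175 ± 4.02 CPM at 0 h and 140 ± 4.57 at 6 h (-0.32, adjusted p = 0.00021), and Ccng1 (-0.33, adjusted p = 0.0002), Eda2r (-0.28, adjusted p = 0.0015) and Aen (-0.26, adjusted p = 0.00064) were also lower. Against 1 h Mdm2 was lower at 6 h with the block (-0.37, adjusted p = 6.8e-05) and without it (adjusted p = 0.035), and 6 of the 10 were lower in total. The gene called higher at 6 h against 0 h was Bbc3, the gene of the BH3 protein PUMA (0.24, adjusted p = 0.019), named after its value had been seen.

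Of 8 genes of the imprinted domain that holds Cdkn1c, 5 were tested, and Kcnq1, Phlda2 and Slc22a18 had at most 5, 2 and 5 counts in a library. The noncoding RNA Kcnq1ot1, transcribed from the allele on which Cdkn1c is silent, was at 6.91 ± 1.21 CPM at 0 h, 11.2 ± 3.10 at 1 h and 11.8 ± 1.67 at 6 h. It rose at 1 h (0.69, SE 0.094, adjusted p = 0.0012, and 0.9998 without the block) and stood 0.78 above 0 h at 6 h (SE 0.093, adjusted p = 3.9e-05, and 0.13 without the block). Cd81 (0.32, adjusted p = 0.00029) and Tssc4 (0.28, adjusted p = 0.012) were also higher at 6 h, and Tnfrsf23 (-0.46, adjusted p = 0.031) and Nap1l4 (-0.17, adjusted p = 0.013) lower.

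The genes most like each called member were ranked by Pearson's r of log2 CPM over the 9 libraries after subtraction of the mean of each replicate number, among 9693 genes with a mean of at least 10 CPM. The 9 points are 3 replicates at 3 time points, so r can reflect the course over time or differences between single libraries, and no p is given. Ccne2 was closest to Dtl (r = 0.998), the Polycomb gene Suz12 (0.996) and the checkpoint kinase gene Chek1 (0.996), which had log2 fold changes of -0.64, -0.32 and -0.57 at 6 h against 0 h. Ccnd1 was closest to the microRNA processing gene Dgcr8 (0.993), the KIT ligand gene Kitl (0.990) and the MAP kinase phosphatase gene Dusp4 (0.988). Their log2 fold changes at 6 h against 0 h were -0.14, -0.56 and -0.61. Ccnd2 was closest to Zhx1 (0.996), Map4k4 (0.993) and Traf3ip1 (0.990), and Ccne1 to Twnk (0.989), Rbm12 (0.989) and Snx2 (0.988). Ccnd3 was closest to Snx32 (0.989), Glrb (0.983) and Clk1 (0.982), Cdk6 to mt-Cytb (0.992), Fnip2 (0.980) and Robo1 (0.976), and Cdkn1c to Zfp523 (0.980), Gm26694 (0.980) and Gsk3a (0.977). Among these, edgeR with the block did not call mt-Cytb (-0.13, adjusted p = 0.098), Gm26694 (0.17, 0.059) and Gsk3a (0.073, 0.28) at 6 h against 0 h.

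Markers of cell types moved between the same time points, and their part in the changes of the G1 genes was not tested. At 1 h against 0 h 0 of the 37 tested markers of the 8 cell type lists were called by edgeR with the block (3 at an unadjusted p under 0.05, and 0 with DESeq2), and 21 were called at 6 h against 0 h. Of all tested genes, 3.51% and 34.9% were called in these comparisons, in the same order. The summed level of the 8 neural stem cell markers was between 5300 and 7197 CPM at 6 h, against 6514 to 8161 CPM at 0 h, with 2 lower at 6 h (Nes and Vim) and 2 higher (Hes5 and Egfr). The 5 markers of oligodendrocyte progenitors were all higher at 6 h, with a sum of 871.8 to 1044 CPM against 608.7 to 780.1 CPM at 0 h. Olig2 (541.8 to 849.1 CPM over all libraries) made up most of this sum. Sox10 (0.0270 to 0.327 CPM) and Gpr17 (0.460 to 1.74 CPM) were low in all libraries. Of the 7 astrocyte markers 2 were higher and 1 lower (1593 to 1899 against 1309 to 1651 CPM). Of the 7 markers of neuroblasts and neurons 3 were higher and 0 lower. The 3 were Tubb3, Snap25 and Rbfox3, with at most 10.1, 5.03 and 7.47 CPM in any library. The sum of the list was 890.5 to 1528 CPM at 6 h against 933.1 to 1474 CPM at 0 h. Map2 made up most of it and was not called (log2 fold change -0.0099, edgeR adjusted p = 0.91 with the block). The fitted changes of Dcx, Dlx2 and Stmn2 were negative and not called, and Dcx was between 0.570 and 1.78 CPM in all libraries. The summed level of the 5 oligodendrocyte markers was 6.29 to 6.84 CPM at 0 h and 7.71 to 8.22 CPM at 6 h (1 higher, 1 lower). The 5 microglial markers summed to 0.215 to 0.351 and 0.122 to 0.308 CPM (0 higher, 1 lower). The 4 endothelial markers summed to 1.95 to 4.24 and 1.45 to 2.82 CPM (0 higher, 1 lower), with Cldn5 at 0 in every library of 0 h and 1 h. The 4 ependymal markers (0 higher, 2 lower) had 37.8 to 59.8 CPM at 6 h and 46.3 to 87.2 CPM at 0 h, nearly all of it Foxj1, while Tmem212 was between 0 and 0.0272 CPM.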

How the data were processed

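The 9 libraries are mRNA from SEZ NSCs after 0, 1 or 6 h of differentiation. The values are the raw counts of reads per Ensembl gene that the authors deposited, made with STAR 2.5.3a on mm10 (GRCm38) and not normalised, as whole numbers for 48526 genes, of which 48058 were found in GENCODE M21. The submitters' processing notes also name FastQC and DESeq2 1.22.1. The strand setting of the counting is not given in the sources used here, and reads from genes that overlap on opposite strands may be shared. Total counts were between 65871454 and 105592597 per library, so that counting error matters most for Cdkn1c, with 32 to 107 counts. The lowest chi-square per degree of freedom between 2 libraries was 12.5, so no library was counted as a copy of another.

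The 10 genes, the lists and the tests were chosen with earlier results of these data known. Genes were filtered with filterByExpr (minimum count 10, minimum total 15), scaled with TMM (factors 0.97 to 1.02), and fitted over all 9 libraries with edgeR 4.0.16 (glmQLFit, glmQLFTest) in R 4.3.3, with time point and replicate number as factors (4 residual degrees of freedom) and a threshold of 0.05. Standard errors were derived from the F statistic. The edgeR fit with the block was tested on data simulated from that same model, which cannot check the choice of the block. The other fits were not tested in this way. Likeness used log2 CPM with a prior count of 2. Lengths, positions and overlaps are from GENCODE M21. Tables and figures used Python 3.11.15, pandas 2.3.3, numpy 2.4.6 and matplotlib 3.10.9.

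The pairing by replicate number rests on the numbers in the labels, which match the letters of the titles, but neither the labels nor the methods say what such libraries share. The check was the correlation of deviations from the time point means, which was 0.851 to 0.943 in the 9 pairs with the same number and -0.529 to -0.363 in the 18 pairs with other numbers. Each time point was centred on its own mean, so the negative values follow from the high ones and are no second check. The common biological coefficient of variation was 0.0627 with the block and 0.277 without. The alternatives were no block, DESeq2 1.42.0 with and without the block, RLE scaling, no scaling factor, no filter, a mean of at least 1 CPM, only the 6 libraries compared, GC content and length trends removed (splines with 4 degrees of freedom, 99.6% of genes), a threshold of 0.01, a minimum change of 1 on the log2 scale, and each library left out. The genes named are the 10, up to 4 per list and comparison with the largest change among those called and changed the same way in 3 of 3 replicates, and for each of the 10 called at 6 h against 0 h the 3 genes of highest r. Values of some list genes outside this rule are also given, as stated with the lists. A gene that this rule names is not reported here. Proteins, splicing and in situ data were not analysed here.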

Additional observations from a re-analysis of the deposited data

How the results depend on the processing

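The replicate block decided most calls. Without the block edgeR called 0 of the 10 genes in each comparison and 0, 0 and 1 of the 76 list genes at 1 h against 0 h, 6 h against 0 h and 6 h against 1 h, and over all genes it called 8, 456 and 404 against 661, 6581 and 6710 with the block. DESeq2 without the block called 99, 1742 and 1693 of all genes, and 0 and 0 of the 10 genes in the first comparison, 0 higher and 2 lower in the second, and 0 and 0 in the third. With the block, DESeq2 and RLE scaling gave the counts of edgeR with TMM. With a minimum change of 1 on the log2 scale, 0 of the 10 genes were left in every comparison. At an adjusted p under 0.01, the counts were 0 higher at 6 h against 0 h, and 0 higher and 3 lower at 6 h against 1 h. With GC content and length corrected in each library, together with the block, 1 was higher at 6 h against 0 h and 0 at 6 h against 1 h. A fit of only the 6 libraries compared gave 0 higher at 6 h against 1 h, and no filter on low counts gave 2 lower at 1 h (Ccnd2 and Ccne2), with 1369 of all genes called. With 1 library left out, the counts at 1 h were 1 higher in each fit and 0 to 1 lower, those at 6 h against 0 h 0 to 3 higher and 4 to 5 lower, and those at 6 h against 1 h 0 to 1 higher and 4 to 7 lower, with 213 to 886, 4350 to 8051 and 5148 to 6657 of all genes called. Ccnd1, Ccnd2, Ccne1 and Ccne2 at 6 h and Cdkn1a at 1 h against 0 h were called in 9 of 9 such fits. Signs changed only at 1 h against 0 h in genes that were not called, for Cdk6 (0.041 with GC content and length corrected, 0.056 without 1 h replicate 3, in a range of -0.096 to 0.056 over the libraries left out), Ccnd3 (-0.024 without 0 h replicate 2, range -0.024 to 0.077) and Cdkn1b (-0.0090 without 1 h replicate 2, range -0.0090 to 0.052). The causes of these differences were not tested.

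The shares depend on the length used. With the longest transcript, the shares at 0 h and 6 h were 61.3% and 63.8% for Ccnd1, 33.4% at 6 h for Ccnd2, 2.0% and 2.85% for Ccnd3, 92.4% and 93.1% for Cdkn1a, 7.53% and 6.70% for Cdkn1b, and 0.112% at 0 h for Cdkn1c. With no division by length they were 48.9% and 51.8% for Ccnd1, 49.5% and 45.8% for Ccnd2, 1.65% and 2.39% for Ccnd3, 84.8% and 86.3% for Cdkn1a, 15.1% and 13.6% for Cdkn1b, and 0.0938% and 0.159% for Cdkn1c. With 1 library left out, each share moved by less than 1 SD. This must hold for any mean of 3 libraries, so it is no check of the shares.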
